A study of Homo sapiens with 5 samples.

Results

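GTSF1 and 9 further genes of the germline piRNA pathway were followed in PRO-seq libraries of HEK293T cells, human embryonic kidney cells transformed with adenovirus DNA and SV40 large T antigen. The 10 genes are GTSF1, GTSF1L, PIWIL1, PIWIL2, PIWIL4, MAEL, TDRD1, TDRD9, DDX4 and ASZ1, out of 20001 genes with an identifier in the deposited table. They were taken by identifier, and GTSF1 was selected on its counts in this same contrast, present in the CAG libraries and 0 in the PGK libraries, so its difference between the lines is described here without a test. The other 9 were listed with it as genes of the same pathway.

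PRO-seq captures RNA that engaged polymerases extend in a run-on reaction, and so reports transcription in progress. The libraries came from monoclonal HEK293T lines with a landing pad, a defined genomic position for inserting DNA. Its promoter was CAG, a strong composite promoter, in 3 libraries and PGK, taken from a glycolysis gene, in 2 libraries. Both lines share the HEK293T background and a landing pad, and no untreated parental library was analysed here. A monoclonal line grows out of a single cell, so promoter and clone cannot be told apart, and nothing in the labels tells if replicates came from separate cultures. Library totals were 4873883 to 5864157 counts in the CAG line, against 5582070 and 3712105 counts in the PGK line. Identifiers were not paired with gene names in the table, so marker genes of the cell line and of germ cells other than DDX4 were not analysed here.

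PIWI-interacting RNAs are small RNAs that guide PIWI proteins, a germline branch of the Argonaute family, to transcripts of transposable elements. In the mouse testis the PIWI proteins cut these transcripts and direct DNA methylation to the elements that produced them. The pathway is gathered in nuage, germ granules held together by Tudor-domain proteins, helicases and mitochondrial anchors. In most somatic cells its genes are silent, many of them under methylated promoters.

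GTSF1 (ENSG00000170627) encodes a small zinc-finger protein that in the mouse binds PIWI proteins and promotes their target cleavage. It had 132, 136 and 163 counts in CAG replicates 1, 2 and 3, against 0 counts in each of the PGK libraries. All 3 CAG libraries thus lay far above both PGK libraries. Relative to library size its level was 26.9, 26.9 and 27.7 CPM (counts scaled to the TMM-adjusted library size) in the CAG libraries, a mean of 27.2 ± 0.498 CPM (SD, n = 3). The exact Poisson interval (95%) of a single library was widest in CAG replicate 1, from 22.5 to 31.8 CPM. The CAG libraries therefore agreed more closely than counting error alone gives on average: their coefficient of variation was 1.83%, and that of the counts by sampling was 8.37%. The absence of counts in the PGK line allows up to 3 counts over its libraries, or 0.326 CPM, which puts the CAG level at least 83.5-fold higher than that limit. With counting error in both lines, the exact conditional 95% interval of the ratio starts at 67.6. GTSF1 was selected on these same counts, so this limit describes counting error only and is not a test.

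Presence in all CAG libraries with absence from both PGK libraries was shared with other genes, nearly all of them scarce. Of 17286 genes with a count, 173 had this pattern (1.00%), with a median of 6 counts in total, and 137 of them had 10 or fewer. Only 3 had over 100 counts, and the 431 counts of GTSF1 ranked second, between 712 and 289. The mirror pattern, counted in both PGK libraries and in no CAG library, was held by 30 genes (0.174%), of which the highest had 29 counts in total. The line with the mirror pattern has fewer libraries and fewer counts (9294175 in the PGK line, against 15741170 in the CAG line), so the 2 numbers are not on an equal footing.

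**Figure D1:**
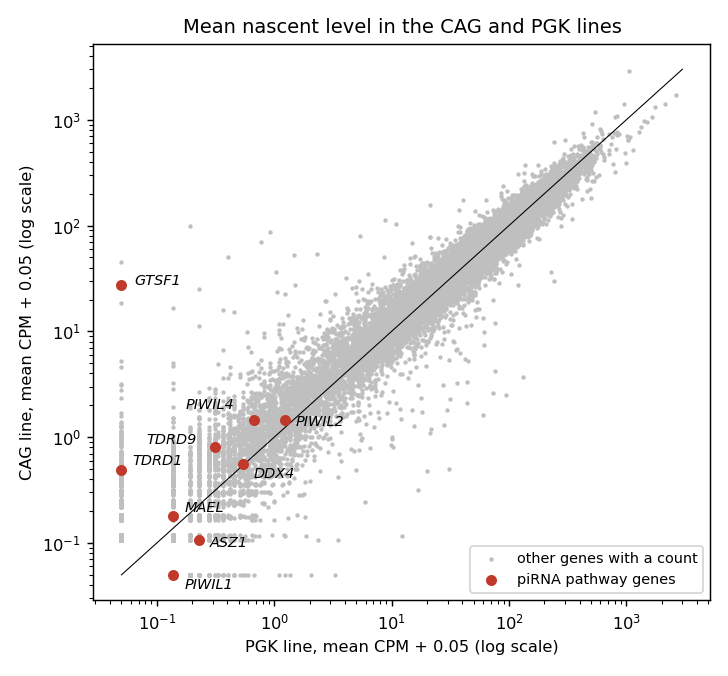
Mean level of each gene with a count in the CAG line (vertical axis) against the PGK line (horizontal axis), as CPM plus 0.05 on log scales; red points are the piRNA pathway genes with a count and the line marks equal levels. GTSF1 stands at 27.2 CPM in CAG cells and 0 in PGK cells, whereas the 8 other pathway genes shown have means of at most 1.42 CPM in both lines.

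The table rows beside GTSF1 did not share its pattern. Of the 5 rows on each side, 0 of 10 were counted in all CAG libraries and absent from both PGK libraries, and 3 had no count in any library. The row directly before GTSF1 stood at 27.2 ± 1.76 CPM in CAG libraries (SD, n = 3) and 28.1 ± 4.42 CPM in PGK libraries (SD, n = 2), with a log2 fold change of -0.07 ± 0.13 (SE, edgeR adjusted p = 0.723). The row directly after it had 0, 0 and 1 counts in the CAG libraries and 0 counts in both PGK libraries. Of the 4 neighbouring rows with enough counts for a test, 1 was called, and it lay 3 rows after GTSF1. Over all 13400 tested genes 43.4% were called. That row had 6, 11 and 19 counts in the CAG libraries, against 3 and 1 counts in the PGK libraries, and rose by 2.32 ± 0.64 on the log2 scale (SE, edgeR adjusted p = 0.00447). The sources used here do not describe the row order, and these rows are not named. In RefSeq (GRCh38.p14) the coding genes on either side of GTSF1 are ITGA5 and NCKAP1L, and the long non-coding RNA gene GPR84-AS1 overlaps it. Whether counting used strand is not given in the sources used here, so reads of GTSF1 and of GPR84-AS1 may not have been kept apart.

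**Figure D2:**
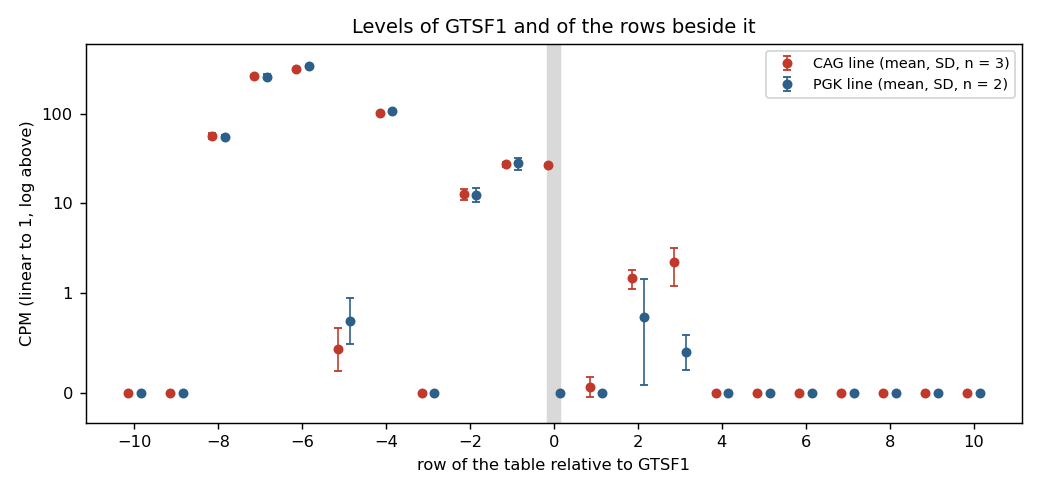
Levels in the CAG line (red) and the PGK line (blue) for GTSF1 (grey band) and the 10 table rows on each side, as mean CPM with SD on a scale that is linear to 1 and logarithmic above. The row before GTSF1 is at 27.2 CPM in CAG and 28.1 CPM in PGK libraries, while GTSF1 itself is at 27.2 and 0 CPM.

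The genes whose pattern over the 5 libraries was most like that of GTSF1 were taken by the smallest Euclidean distance in log2 CPM (prior count 2), each gene centred on its mean, among 13399 other tested genes. The closest was ENSG00000188511 (distance 0.05), with 421, 443 and 513 counts in the CAG libraries, against 5 and 3 counts in the PGK libraries. ENSG00000106526 followed (distance 0.34), with 350, 341 and 415 counts in the CAG line, against 5 and 2 counts in the PGK line. Both of these genes kept a few counts in each PGK library, which GTSF1 did not. At 0 counts the log2 CPM of GTSF1 in both PGK libraries (-1.33) is set by the prior count, so the distances depend on it. The other 3 of the closest 5 had distances of 0.66 to 0.90 and mean levels of 18.3 to 45.1 CPM in the CAG line, against 0 to 0.177 CPM in the PGK line. None of these 5 lay within 10 rows of GTSF1, whereas the genes of rank 2 and rank 4 were adjacent rows of the table.

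To set GTSF1 beside its pathway, the windows from 250 bases before to 50 bases after each RefSeq start site (GRCh38.p14) were searched. Of the 10 genes, 7 matched, with 9 start sites between them. GTSF1L, PIWIL2 and PIWIL4 had no entry. The motifs were CACGTG (E-box), TCCCGC (E2F type) and CAACNG or TAACNG (MYB type, the kind bound by A-MYB, which drives piRNA pathway genes in the mouse testis), each on both strands. CACGTG reads the same on both strands and was counted once, and no motif overlapped another in the windows shown. The stretches below are shown because GTSF1, PIWIL1 and the second MAEL start site hold a MYB-type match across or beside the start of transcription, and TDRD1 holds a pair of E-boxes. Capitals mark the matches, which for the first 3 lie on the opposite strand.
GTSF1, chr12:54473599-54473622, minus strand, positions -20 to 4: gttaggcgccggaagtggCCGTTG
PIWIL1, chr12:130337867-130337890, plus strand, positions -20 to 4: ggcgcgcgccgctttccgCCGTTA
MAEL, chr1:166989260-166989283, plus strand, positions -20 to 4: cgcaggcgcctacctCTGTTActt
TDRD1, chr10:114179222-114179247, plus strand, positions -65 to -40: CACGTGggcacattgagttgCACGTG

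A MYB-type match within 10 bases of the start was thus present at 3 of 9 start sites of the pathway genes, against 4.02% of all 35116 RefSeq windows, and this limit of 10 bases was chosen after the matches had been seen. Anywhere in the window, the motif was found at 4 of 9 start sites and in 46.2% of all windows. GTSF1 had a second MYB-type match at positions -219 to -214, and TDRD9 had its match at positions 22 to 27. TCCCGC was found at 5 of 9 start sites (PIWIL1, both of MAEL, TDRD9 and ASZ1), against 26.9% of all windows, and not in the GTSF1 window. CACGTG was found at 3 of 9 start sites, against 7.26% of all windows, namely the second of MAEL and both of TDRD1, whose windows overlap. A match only says that these letters are present. Of the genes with a MYB-type match at the start, GTSF1 was well counted in the CAG line, whereas PIWIL1 and MAEL were at or near 0 in both lines. Counts are per gene and do not tell start sites apart, and a link between motif and level was not tested.

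The promoters also differed in CpG content. The GTSF1 window held 10 CpG dinucleotides, a ratio of observed to expected CpG of 0.349, and 36.8% of all windows had a lower ratio. DDX4 had the fewest, 1 CpG (ratio 0.12). The remaining 7 start sites held 17 to 60 CpG with ratios of 0.746 to 1.12, above the median of all windows (0.579). GTSF1 and DDX4 were therefore the 2 matched genes with windows below that median, and of these DDX4 was scarce in both lines.

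**Figure D3:**
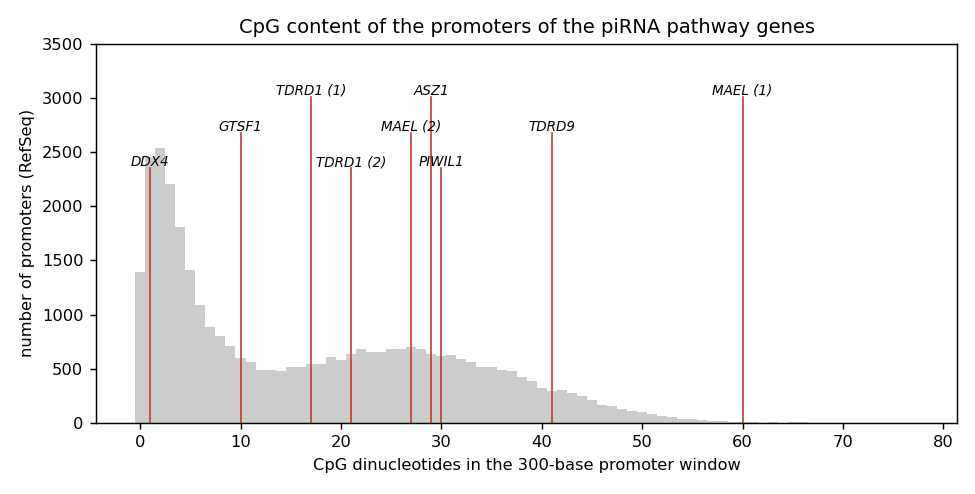
Number of RefSeq promoter windows of 300 bases (vertical axis) by their count of CpG dinucleotides (horizontal axis), with the 9 start sites of the matched piRNA pathway genes marked by red lines; numbers in brackets tell apart the start sites of a gene. DDX4 has 1 CpG and GTSF1 has 10, and the other start sites have 17 to 60.

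Of the 9 other genes, 8 had counts, all close to the limit of these libraries, and GTSF1L had none. None passed the filter on low counts, which asked for about 2 CPM (10 counts at the median library total) in at least 2 libraries and left 13400 genes. GTSF1 was the only 1 of the 10 genes that passed, and it did so through the CAG line, where it is high. The 9 genes together had 25, 19 and 31 counts in the CAG libraries, against 25 and 5 counts in the PGK libraries. Their summed level was 4.71 ± 0.827 CPM in CAG libraries (SD, n = 3), against 2.92 ± 2.14 CPM in PGK libraries (SD, n = 2), which stood apart from each other at 4.43 and 1.40 CPM. PGK replicate 1 lay within the range of the CAG libraries (3.76 to 5.27 CPM), and PGK replicate 2, the shallowest library, lay below all others. The ratio of the summed levels, CAG over PGK, was 1.61, and it was 1.06 without PGK replicate 2 and 3.36 without PGK replicate 1. In the CAG line GTSF1 alone held 85.2% of the counts of all 10 genes. That share follows in part from its selection on these counts and is not adjusted for gene length.

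**Figure D4:**
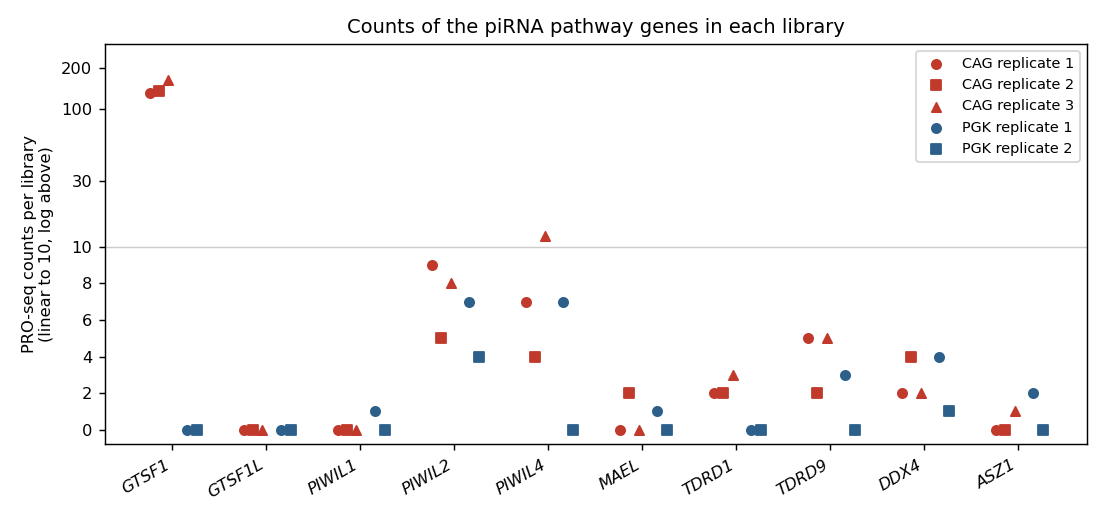
Counts of each gene in each library (vertical axis, linear to 10 and logarithmic above), with CAG libraries in red to the left and PGK libraries in blue to the right. GTSF1 has 132 to 163 counts in the CAG libraries and 0 in the PGK libraries, and every other gene has at most 12 counts in a library.

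GTSF1L (ENSG00000124196), a close relative of GTSF1, was not counted. It had 0 counts in all 5 libraries, which allows up to 0.189 CPM in CAG cells and 0.326 CPM in the PGK line (limit of 3 counts over a line, counting error only). The relative of GTSF1 was thus not detectable in the line where GTSF1 stood at 27.2 CPM.

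The PIWI proteins are the effectors that carry the small RNA. PIWIL2 (ENSG00000197181), the human counterpart of mouse MILI, which takes part in the first steps of piRNA production, had 9, 5 and 8 counts in the CAG libraries, against 7 and 4 counts in the PGK libraries. It was counted in every library, and the lines overlapped at 1.39 ± 0.422 CPM in the CAG line (SD, n = 3), against 1.18 ± 0.0846 CPM in the PGK line (SD, n = 2). The ratio of pooled levels, CAG over PGK, was 1.16, with an exact conditional 95% interval of 0.54 to 2.65, so that interval leaves room for up to 2.65-fold more in CAG cells. In an edgeR fit on all 17286 genes with a count, its log2 fold change was 0.21 (adjusted p = 0.823).

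PIWIL4 (ENSG00000134627), the counterpart of mouse MIWI2, which acts in the nucleus, had 7, 4 and 12 counts in the CAG libraries, against 7 and 0 counts in the PGK libraries. PGK replicate 1 lay between the CAG libraries in CPM, and PGK replicate 2 lay below all of them. Pooled over libraries its level was 1.45 CPM in the CAG line (95% exact Poisson interval 0.92 to 2.18), against 0.76 CPM in the PGK line (0.306 to 1.57). The log2 fold change in the fit on all genes with a count was 0.91 (edgeR adjusted p = 0.306). It passed the threshold only without PGK replicate 1 (edgeR adjusted p = 0.0175), where the PGK line was left with 1 library at 0 counts, assumed to vary like the CAG libraries, and without PGK replicate 2 it was 0.22 (edgeR adjusted p = 0.84). The long non-coding gene PIWIL4-AS1 overlaps PIWIL4 in RefSeq, so its reads may be included.

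PIWIL1 (ENSG00000125207), the counterpart of mouse MIWI, the PIWI protein of later stages of sperm formation, was at or near 0. It had 0 counts in the CAG libraries, against 1 and 0 counts in the PGK libraries. The coding gene RIMBP2 overlaps PIWIL1 in RefSeq, so even this single count may belong to the other gene.

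The Tudor proteins bind methylated arginines of PIWI proteins and assemble the granules. TDRD1 (ENSG00000095627), a scaffold that binds MILI in the mouse, had 2, 2 and 3 counts in the CAG libraries, against 0 counts in each of the PGK libraries. Like GTSF1 it appeared in all CAG libraries and in neither PGK library, a pattern held by 4.43% of the 3699 genes with 1 to 33 counts in total, the range of the 8 scarce pathway genes with a count. Its pooled level was 0.442 CPM in the CAG line (95% exact Poisson interval 0.178 to 0.91), against 0 counts and a limit of 0.326 CPM in the PGK line. The exact conditional 95% interval of the ratio starts at 0.837, so counting error alone leaves room for equal levels. In the fit on all genes with a count the edgeR adjusted p was 0.102, whereas the limma-trend adjusted p was 0.0246, so their calls differed. DESeq2 gave a log2 fold change of 3.41 without an adjusted p, and so made no call.

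TDRD9 (ENSG00000156414), a helicase with a Tudor domain that is needed for transposon silencing in the mouse testis, had 5, 2 and 5 counts in the CAG libraries, against 3 and 0 counts in the PGK libraries. The lines overlapped, since PGK replicate 1 lay above CAG replicate 2. Its pooled level was 0.757 CPM in the CAG line (0.391 to 1.32), against 0.326 CPM in the PGK line (0.0672 to 0.952), and the edgeR adjusted p was 0.399. The coding gene RD3L and the pseudogene RN7SL634P overlap TDRD9 in RefSeq, so their reads may be included.

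The last 3 genes belong to nuage and piRNA processing. DDX4 (ENSG00000152670), the human Vasa helicase and a defining marker of germ cells, had 2, 4 and 2 counts in the CAG libraries, against 4 and 1 counts in the PGK libraries. It was counted in all 5 libraries at 0.505 CPM in the CAG line (pooled, 0.218 to 0.995), against 0.543 CPM in the PGK line (0.176 to 1.27). The ratio, CAG over PGK, was 0.929 (exact conditional 95% interval 0.268 to 3.61), and edgeR gave an adjusted p of 0.949. DDX4 was thus scarce both in the line with GTSF1 counts and in the line without them. The pseudogenes LOC107986371 and RNA5SP183 overlap DDX4 in RefSeq, so their reads may be included.

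MAEL (ENSG00000143194), the human Maelstrom protein, which in the mouse takes part in transposon silencing, had 0, 2 and 0 counts in the CAG libraries, against 1 and 0 counts in the PGK libraries. ASZ1 (ENSG00000154438), a mitochondrial outer-membrane protein that anchors nuage in mouse germ cells, had 0, 0 and 1 counts in the CAG libraries, against 2 and 0 counts in the PGK libraries. Each was counted in 2 of 5 libraries, and the lines overlapped. Their ratios, CAG over PGK, were 1.16 for MAEL and 0.29 for ASZ1, with exact conditional 95% intervals of 0.0605 to 68.5 and 0.00492 to 5.58. The pseudogene RNA5SP65 overlaps MAEL in RefSeq, so its reads may be included.

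**Figure D5:**
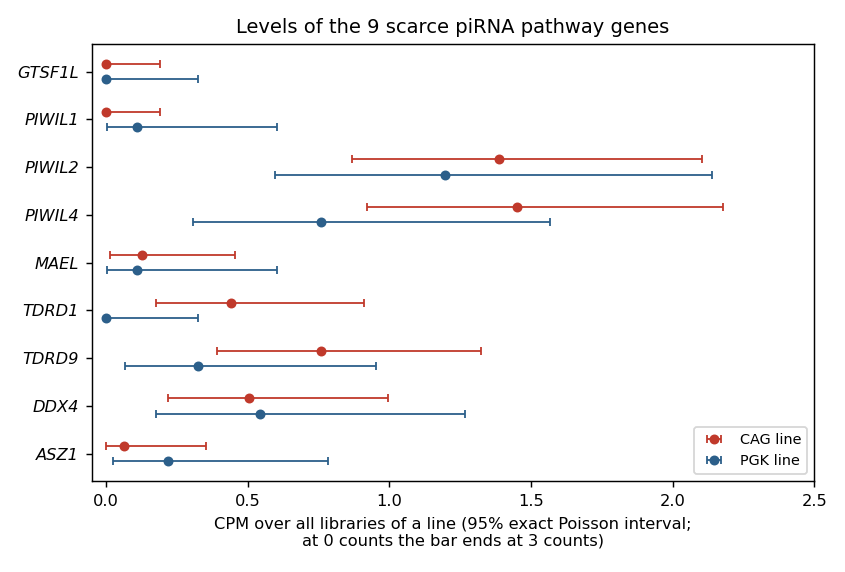
Level of each of the 9 scarce genes over all libraries of the CAG line (red, above) and the PGK line (blue, below), as pooled CPM with 95% exact Poisson intervals, which cover counting error only; at 0 counts the bar ends at 3 counts. The intervals of the lines overlap for every gene, as in PIWIL2 with 0.87 to 2.10 CPM in the CAG line and 0.596 to 2.14 CPM in the PGK line.

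Counted together, 8 of the 9 scarce genes had a count and could be fitted with all genes that had a count, and edgeR called 0 of these 8 at an adjusted p under 0.05, where it called 34.8% of all 17286 genes. The lowest unadjusted p among the 8 was that of TDRD1 (edgeR unadjusted p = 0.0409). The share of all genes, or of scarce genes, with an unadjusted p as low was not computed. An exact permutation of the line labels could not reach 0.05 with these libraries. Of the 3699 genes with 1 to 33 counts, edgeR called 3.35%, so a count of 0 among 8 lies near the background of such scarce genes. Every CAG library lay above every PGK library for 1 of the 8, TDRD1, and for 15.6% of the 3699 genes. The fitted direction was higher in the CAG line for 5 (PIWIL2, PIWIL4, MAEL, TDRD1 and TDRD9) and lower for 3 (PIWIL1, DDX4 and ASZ1). Levels are not divided by gene length, so the order of the genes by CPM has no meaning here.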

How the data were processed

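PRO-seq was analysed in 5 libraries, 3 of the CAG line and 2 of the PGK line, grouped by their titles. The authors deposited raw counts per Ensembl gene identifier. The submitters' processing notes name hg19, featureCounts 2.0.3, HISAT2 2.2.1, Bowtie2 2.5.1, UMI-tools, cutadapt and fastp 0.23.2, without their roles or settings; annotation, strandedness and the counted part of a gene were not given in the sources used here. Of 20019 rows, 18 had no identifier (95 counts, at most 0.000448% of a library) and were left out. Symbols were given to the 10 identifiers by the order in which names and identifiers were listed for this work; the deposited table does not pair them, so this match was not checked. The RefSeq table held 0 Ensembl identifiers, so the wider piRNA, small RNA, repressor, germline and marker lists were not analysed here.

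Genes were filtered with filterByExpr (minimum count 10, minimum total 15), scaled by TMM and tested as CAG over PGK with edgeR 4.0.16 (quasi-likelihood F test, no covariate, Benjamini-Hochberg over all tested genes, adjusted p under 0.05) in R 4.3.3. The 9 scarce genes failed the filter and were read from the fit on all genes with a count. DESeq2 1.42.0, limma-trend (limma 3.58.1), other scalings and filters, a replicate block and leaving out each library were alternatives. The tests were tried on simulated data. Standard errors are log2 fold changes divided by the root of the F statistic. Poisson and conditional intervals (95%) and the limit of 3 counts cover counting error only, and p-values measure spread between libraries that may be technical repeats. With 2 against 3 libraries an exact permutation test that doubles the smaller tail share cannot go below 0.2, so none is reported.

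The genes and lists were chosen with earlier results of these data known. All 10 genes are named; neighbours were the 5 rows on each side of GTSF1, and similar genes the 5 nearest, of which 2 are named because identifiers are not paired with symbols.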

Additional observations from a re-analysis of the deposited data

Results flagged for a closer look

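The 18 rows without a gene identifier, which no comparison used, held 95 counts over the 5 libraries. They held 21, 15 and 21 counts in the CAG libraries, against 25 and 13 counts in the PGK libraries. No line had the 4 libraries needed to look for a library far from the others.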

How the results depend on the processing

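The mean of GTSF1 in the CAG line lay between 26.9 and 27.4 CPM under every scaling and with each CAG library left out. The number of pathway genes past the threshold ran from 1 to 2 with 1 library left out; it always includes GTSF1, which was chosen for its counts and in most settings was the only pathway gene that passed the filter, so this number says nothing about stability. The second gene was PIWIL4 without PGK replicate 1, which leaves 1 PGK library, assumed to vary like the CAG libraries. The count of 5818 genes called was 4054 in DESeq2, 4754 to 5689 with 1 library left out and 5694 to 6024 under the other scalings, filters and limma-trend. With the replicate number as a block it was 4667, and there CAG replicate 3, which has no PGK partner, adds nothing to the contrast. CAG and PGK libraries with the same number deviated from their line means with correlations of 0.04 and -0.07. The deviations of the 2 PGK libraries mirror each other, so these correlations can say little about pairing. The fits of the 8 scarce genes with a count were chosen after seeing the data. Of their 71 alternatives, 60 kept direction and were not called, and 9 turned the sign of an uncalled value. DESeq2 gave no adjusted p for PIWIL1, MAEL, TDRD1, TDRD9, DDX4 and ASZ1, so among the 60 those fits kept direction only. TDRD1 passed the threshold under limma-trend. PIWIL4 had a log2 fold change of 5.84 without PGK replicate 1, where 1 PGK library is left. The cause was not tested. DDX4 (-0.10) turned to 0.036 under limma-trend and 0.14 under the replicate block. With 1 library left out, log2 fold changes lay from -0.52 to 0.79 for DDX4, from -0.012 to 0.39 for PIWIL2, from -2.42 to 2.56 for MAEL and from -3.22 to 1.79 for ASZ1. Fold changes of the scarce genes in the main filtered fit gave no value, since none of these genes passed that filter. The wider piRNA list gave no value, since no names were paired with identifiers. Under a filter at a mean of at least 1 CPM, PIWIL2 (0.21, edgeR adjusted p = 0.777) and PIWIL4 (0.91, edgeR adjusted p = 0.28) were tested and not called. Depth limits the 9 scarce genes, which had 0 to 33 counts in total.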
